A study of Homo sapiens with 15 samples.

Results

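The 40 genes described here encode the proteasome, the proteins that activate, assemble or regulate it, and its immune-type catalytic subunits, measured in NCI-H69 cells treated with CS2, FB23-2 or DMSO. They were chosen by gene symbol and comprise 7 genes of the alpha ring and 7 of the beta ring of the 20S core, 6 ATPases and 11 other subunits of the 19S cap, 3 immunoproteasome subunits, 4 activators, the maturation factor POMP and the transcription factor NFE2L1. All 40 were found among the 62754 gene IDs of the count table, and all 40 were among the 19781 genes tested. NCI-H69 is a small cell lung cancer line of the classic type, and the series asked how inhibition of FTO, an RNA demethylase, changes its transcriptome. CS2 is known as brequinar, which also inhibits the pyrimidine synthesis enzyme DHODH, and FB23-2 is an FTO inhibitor derived from the scaffold of meclofenamic acid. Polyadenylated RNA of 3 libraries with CS2, 3 with FB23-2 and 3 with DMSO, the solvent control, was sequenced. The groups share the cell line, and no genetic change is labelled for any of them. No dose or time is given in the labels, and the comparisons are between groups as labelled. The 6 samples of the H82 line in the labels were not analysed here.

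The proteasome degrades proteins marked with ubiquitin. Its 20S core is a barrel of alpha rings, which form the gate, and beta rings, of which PSMB5, PSMB6 and PSMB7 carry the chymotrypsin-like, caspase-like and trypsin-like active sites. The 19S cap recognises, unfolds and feeds substrates through an ATPase ring. After interferon, PSMB8, PSMB9 and PSMB10 can replace PSMB5, PSMB6 and PSMB7 and change the peptides offered to MHC class I, while PSME1 and PSME2 form an activator that opens the core without the 19S cap. NFE2L1 is the transcription factor that raises proteasome genes when proteasome activity is short.

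The libraries held 29916267 to 33663742 counts with CS2, 32352835 to 43957839 with FB23-2 and 31404658 to 45022633 with DMSO. Levels are given as CPM, the count scaled to a fixed library size, and 3 counts corresponded to 0.0666 to 0.101 CPM. All 7 neuroendocrine small cell lung cancer markers were expressed in every library, with summed levels of 2683 to 2910 CPM with CS2, 2688 to 3087 CPM with FB23-2 and 3614 to 3904 CPM with DMSO. Blood cell markers summed to 0.503 to 1.67 CPM over all libraries, with the T cell gene CD3E at 0. Fibroblast and endothelial markers summed to 33.6 to 39.9 CPM with CS2, 10.9 to 15.4 CPM with FB23-2 and 54.6 to 56.8 CPM with DMSO, led by the collagen gene COL1A2, with DCN at 0 throughout. Their mean sum changed by -76.4% with FB23-2 and by -35.5% with CS2 against DMSO. The summed 20S core and 19S cap genes, described below, changed by -20.3% with FB23-2 and by 3.28% with CS2. The marker sum thus fell with both compounds and the proteasome sum with FB23-2 alone. The part of these marker genes in the proteasome values was not tested. FB23-2 replicate 2 stood apart from the other FB23-2 libraries: the chi-square per degree of freedom over genes was 50.1 and 48.1 for its pairs, against 4.21 to 14.1 for the other within-group pairs. It also had the largest share of mitochondrial counts, 11%, against 6.83% and 6.91% in the other FB23-2 libraries, 7.3% to 9.05% with CS2 and 5.18% to 5.69% with DMSO.

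FB23-2 lowered most of the proteasome at the RNA level, while CS2 left its summed level near that of DMSO and changed single genes in both directions. With FB23-2, 22 of the 40 genes fell and 4 rose against DMSO (edgeR quasi-likelihood test, with a threshold of 0.05 on the p adjusted by Benjamini-Hochberg over the tested genes), beside 26.7% of all tested genes lower and 25.4% higher. The members' shares were 55% lower and 10% higher, with a median log2 fold change of -0.23 against 0 over all tested genes. With CS2, 7 genes rose and 6 fell, or 17.5% and 15%, beside 24.3% of all tested genes higher and 25.3% lower, and the median was 0.04. Directly between the compounds, 23 genes were lower and 4 higher with FB23-2 than with CS2, beside 30% of all tested genes lower and 29.7% higher, with a median of -0.31. Without FB23-2 replicate 2, the counts against DMSO were again 22 lower and 4 higher, and against CS2 they were 25 lower and 4 higher. In RNA of a whole culture, a lower level per cell and fewer cells with the RNA cannot be told apart.

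**Figure D1:**
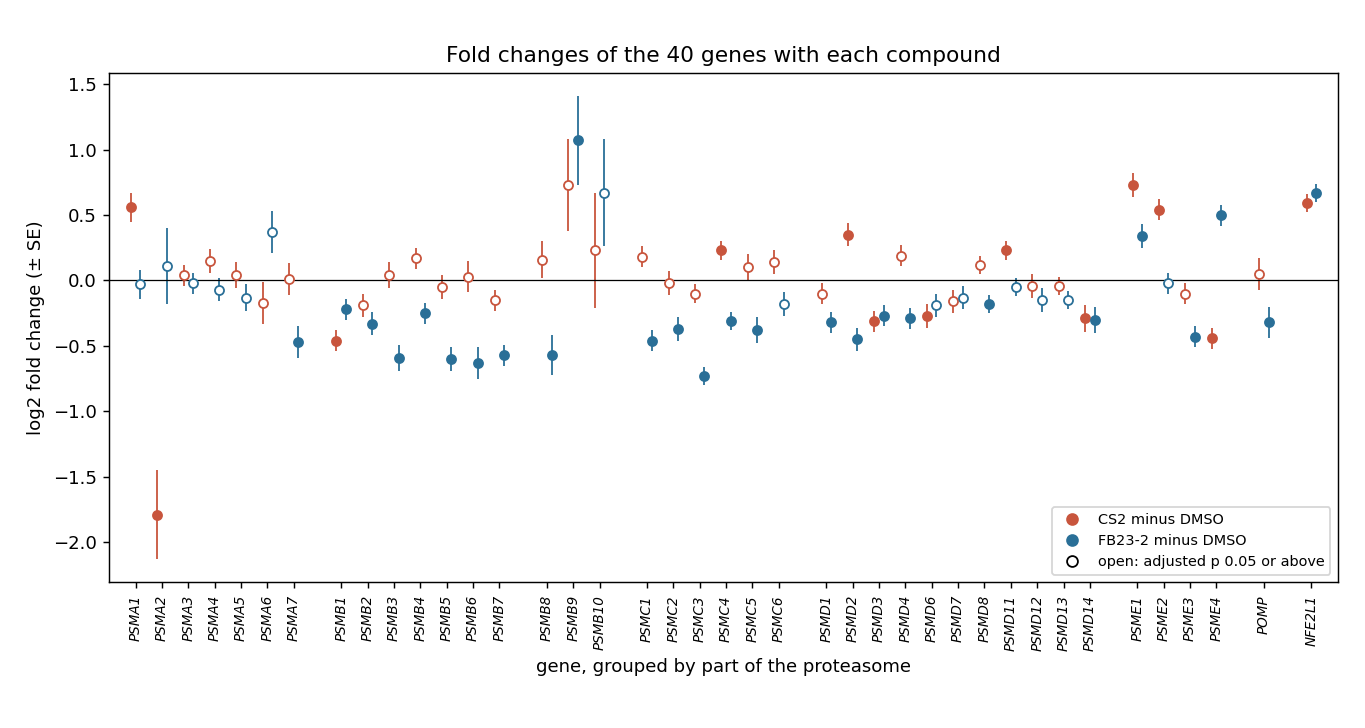
Log2 fold changes of the 40 genes (vertical axis, points with SE bars) for CS2 minus DMSO and FB23-2 minus DMSO, with genes grouped by their place in the proteasome; filled points passed an adjusted p under 0.05 and open points did not. All 7 beta ring genes lie below 0 with FB23-2, and NFE2L1 lies above 0 with both compounds.

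The 31 genes of the 20S core and 19S cap were summed in each library to show the size of this difference. The sum was 4647, 4782 and 5003 CPM in the CS2 libraries, 3710, 3446 and 3974 CPM in the FB23-2 libraries, and 4702, 4622 and 4649 CPM in the DMSO libraries. All 3 FB23-2 libraries lay below every other library, and their mean was 20.3% below that of DMSO. FB23-2 lowered 19 of these 31 genes and raised none, with a median log2 fold change of -0.27. The lowered genes are 61.3%, beside 26.7% of all tested genes lower and 25.4% higher. CS2 raised 4 and lowered 5 of them, with a median of 0.01, and its mean sum was 3.28% above DMSO with a single CS2 library below a DMSO library. The 40 genes together took 0.575% to 0.606% of all counts with CS2, 0.423% to 0.509% with FB23-2 and 0.55% to 0.558% with DMSO.

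**Figure D2:**
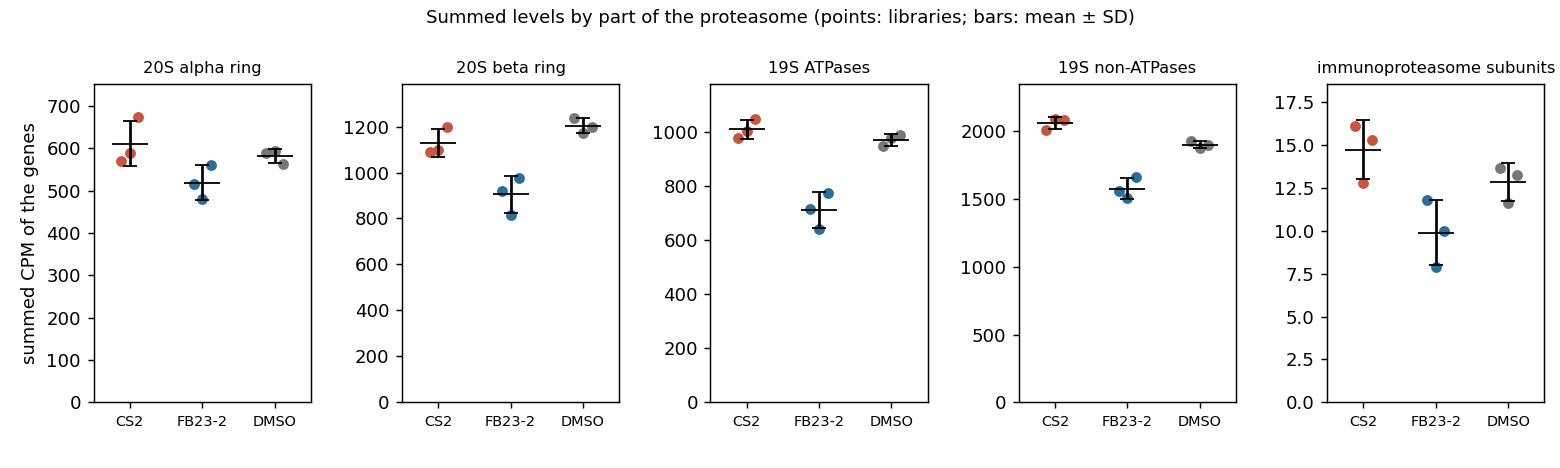
Summed CPM (vertical axes, starting at 0) of the genes of 5 parts of the proteasome in each library, with the mean and SD of each group; groups run CS2, FB23-2, DMSO. For the beta ring, the 19S ATPases and the 19S non-ATPases, every FB23-2 library lies below every CS2 and DMSO library.

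The beta ring, which holds the active sites, fell as a whole with FB23-2. All 7 of its genes were called lower than with DMSO, beside 26.7% of all tested genes. Their log2 fold changes were -0.63 to -0.22, with a median of -0.57. The FB23-2 and DMSO libraries did not overlap for any of them, but the share without overlap over all tested genes was not computed. The ring's sum was 1129 ± 60 CPM with CS2, 904.6 ± 81 CPM with FB23-2 and 1203 ± 32 CPM with DMSO (SD, n = 3 each), which put FB23-2 24.8% below DMSO and CS2 6.16% below. PSMB6, with the caspase-like site, had 47.9, 32.7 and 50.5 CPM with FB23-2, against 71.2, 63.4 and 68.1 CPM with DMSO. Every FB23-2 library was below every DMSO library, and replicate 2 was the lowest. The log2 fold change was -0.63 ± 0.12 (SE; edgeR adjusted p = 0.000193), a 1.55-fold fall. With CS2, PSMB6 had 68.5, 65.4 and 72.7 CPM, overlapping DMSO at a log2 difference of 0.03.

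PSMB5, with the chymotrypsin-like site that drugs such as bortezomib bind, had 115, 96.1 and 128 CPM with FB23-2, against 178, 163 and 173 CPM with DMSO. Again no library overlapped, and the log2 fold change was -0.60 ± 0.09 (edgeR adjusted p = 1.49e-05). PSMB7, with the trypsin-like site, had 158, 133 and 154 CPM with FB23-2, against 232, 216 and 213 CPM with DMSO, and fell by 0.57 on the log2 scale (edgeR adjusted p = 5.49e-06). The 3 constitutive catalytic subunits thus fell 1.49-fold to 1.55-fold with FB23-2. With CS2, PSMB5 and PSMB7 differed from DMSO by -0.05 and -0.15 on the log2 scale and did not pass the test (edgeR adjusted p = 0.683 and 0.111). PSMB3, a structural subunit, had 99, 78.4 and 105 CPM with FB23-2, against 150, 139 and 134 CPM with DMSO, a log2 fold change of -0.59 ± 0.10 (edgeR adjusted p = 4.59e-05). With CS2 it had 137, 137 and 161 CPM, overlapping DMSO.

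PSMB1 was the beta ring gene that fell with CS2. Its level was 169, 167 and 196 CPM with CS2, 207, 192 and 229 CPM with FB23-2 and 246, 239 and 247 CPM with DMSO. All treated libraries were below all DMSO libraries, and FB23-2 and CS2 libraries overlapped. PSMB1 changed on the log2 scale by -0.46 ± 0.08 with CS2 (edgeR adjusted p = 9.54e-05) and -0.22 ± 0.08 with FB23-2 (edgeR adjusted p = 0.0258), and FB23-2 was 0.24 above CS2 (edgeR adjusted p = 0.0163). The FB23-2 call was lost without FB23-2 replicate 1 or 2 or without DMSO replicate 1 or 3, at adjusted p of 0.0696 to 0.0806. The difference between the compounds was lost without CS2 replicate 1 or 2, without FB23-2 replicate 3 and after a correction for GC content and gene span, at adjusted p of 0.0677 to 0.113. Of the other structural subunits, PSMB2 and PSMB4 fell with FB23-2 by 0.33 and 0.25, while with CS2 they differed by -0.19 and 0.17 and did not pass the test (edgeR adjusted p = 0.0649 and 0.0736). With CS2, PSMB2 did pass under 6 of 15 alternatives, at values of -0.25 to -0.19, and PSMB4 under 3, at 0.17 to 0.27.

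In the alpha ring, which forms the gate of the core, FB23-2 lowered 1 of 7 genes, or 14.3%, beside 26.7% of all tested genes. The lowered gene was PSMA7, with 141, 97.2 and 143 CPM with FB23-2, against 188, 180 and 161 CPM with DMSO. The groups did not overlap and the log2 fold change was -0.47 ± 0.12 (edgeR adjusted p = 0.00349). PSMA3, PSMA4 and PSMA5 passed no test in either comparison with DMSO, with log2 fold changes of -0.13 to 0.15. After the GC and span correction, PSMA3 and PSMA5 did pass as lower with FB23-2 (-0.25 and -0.35, adjusted p = 0.0137 and 0.0118), and PSMA4 passed as higher with CS2 without CS2 replicate 1 (0.25, adjusted p = 0.0365). The ring's sum was 610.9 ± 54 CPM with CS2, 518.6 ± 41 CPM with FB23-2 and 581.6 ± 16 CPM with DMSO (SD, n = 3 each). The FB23-2 libraries all lay below those of DMSO, while the CS2 libraries lay within or above their range.

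PSMA1 and PSMA2 moved in opposite directions with CS2. PSMA1 had 23.8, 26 and 24.8 CPM with CS2, 17.9, 14.4 and 17.4 CPM with FB23-2 and 17.6, 17 and 16 CPM with DMSO. It was higher in all CS2 libraries than in any other library, with a log2 fold change of 0.56 ± 0.11 against DMSO (edgeR adjusted p = 0.000197). PSMA2 had 0.737, 0.436 and 0.665 CPM with CS2, 2.03, 3.31 and 1.57 CPM with FB23-2 and 1.37, 2.96 and 2.15 CPM with DMSO. Its CS2 libraries were all below the others, at a log2 fold change of -1.79 ± 0.34 (edgeR adjusted p = 0.00023), while FB23-2 and DMSO overlapped. Only 560 counts over 9 libraries lay behind PSMA2. Per kilobase of the principal transcript, the DMSO levels were 1.45 RPKM for PSMA2, 4.05 for PSMA6 and 11.2 for PSMA1, against 16.5 to 177 for the other 4 alpha genes. In the annotation PSMA1, PSMA2 and PSMA6 share 19.58%, 15.15% and 15.09% of their 50-base windows with transcripts of other genes, so their counts are uncertain. Among those genes are overlapping protein-coding loci on the same strand (ENSG00000256206, ENSG00000256646 and ENSG00000258790), which held 0, 12 and 12 counts in all. Others are PSMA1P1 for PSMA1, CSF2RA, POGLUT3 and ZNF665 for PSMA2, and PSMA6P1, PSMA6P2 and ATXN3 for PSMA6. PSMA2 also shares exon bases with MRPL32 on the opposite strand, which rose by 0.39 with CS2. PSMA6 did not pass the test against DMSO with either compound, with log2 fold changes of -0.17 for CS2 and 0.37 for FB23-2 (edgeR adjusted p = 0.391 and 0.0524).

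The ATPase ring of the 19S cap, which unfolds substrates, fell with FB23-2 in 5 of 6 genes, with a median of -0.38. These are 83.3%, beside 26.7% of all tested genes. All 6 were lower with FB23-2 than with CS2, beside 30% of all tested genes. The ring's sum was 979.7, 1005 and 1051 CPM with CS2, 717.7, 641.3 and 775.5 CPM with FB23-2 and 948.8, 978.9 and 988.9 CPM with DMSO. The FB23-2 mean was 26.8% below that of DMSO, and no FB23-2 library reached any other. PSMC3, an ATPase of this ring, fell most in log2 terms among the 22 genes that FB23-2 lowered. It had 186, 169 and 200 CPM with FB23-2, against 306, 301 and 313 CPM with DMSO. The groups lay far apart, at a log2 fold change of -0.73 ± 0.07 (edgeR adjusted p = 8.36e-08), a 1.66-fold fall. With CS2 it had 282, 289 and 289 CPM, all below DMSO, but the log2 difference of -0.10 did not pass the test (edgeR adjusted p = 0.27), except after the GC and span correction (-0.18, adjusted p = 0.0293).

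PSMC1, PSMC2 and PSMC5 fell with FB23-2 by 0.46, 0.37 and 0.38 on the log2 scale. PSMC1 shares 75.82% of its exon bases with NRDE2 on the opposite strand, which fell by 1.08 with FB23-2. Whether counting used the strand is not stated in the labels, so reads of that pair cannot be assigned with certainty. PSMC5 shares 19.47% of its exon bases with FTSJ3 on the opposite strand, which had -0.33. PSMC6 had a log2 fold change of -0.18 and did not pass the test (edgeR adjusted p = 0.101), but passed after the GC and span correction (-0.36, adjusted p = 0.00137). PSMC4 was called in opposite directions by the compounds. It had 187, 185 and 192 CPM with CS2, 127, 119 and 140 CPM with FB23-2 and 160, 157 and 164 CPM with DMSO. The groups did not overlap in any pair, with log2 fold changes of 0.23 ± 0.07 for CS2 (edgeR adjusted p = 0.014) and -0.31 ± 0.07 for FB23-2 (edgeR adjusted p = 0.00152). Leaving out DMSO replicate 2 ended the CS2 call (0.22, adjusted p = 0.0599), as did the GC and span correction (0.13, adjusted p = 0.101).

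Of the 11 other 19S subunits, 6 fell with FB23-2 and none rose, or 54.5% lower, beside 26.7% of all tested genes lower and 25.4% higher. CS2 raised 2 and lowered 3, or 18.2% and 27.3%, below and near the 24.3% and 25.3% of all tested genes. PSMD2, a large scaffold that binds ubiquitin-like domains and shuttle factors, had 715, 720 and 684 CPM with CS2, 432, 339 and 440 CPM with FB23-2 and 576, 533 and 550 CPM with DMSO. The 3 groups were fully separated, with CS2 highest and FB23-2 lowest. On the log2 scale the changes were 0.35 ± 0.09 with CS2 (edgeR adjusted p = 0.00197) and -0.45 ± 0.09 with FB23-2 (edgeR adjusted p = 0.00018), and FB23-2 was below CS2 by 0.81 (edgeR adjusted p = 1.28e-07). PSMD11, a scaffold subunit, rose with CS2 by 0.23 (edgeR adjusted p = 0.0091) and had -0.05 with FB23-2. Leaving out CS2 replicate 2 or DMSO replicate 2 ended the CS2 call (adjusted p = 0.0514 and 0.0512).

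PSMD3, another scaffold subunit, fell with both compounds. It had 117, 104 and 117 CPM with CS2, 111, 115 and 121 CPM with FB23-2 and 144, 131 and 143 CPM with DMSO, so that every treated library was below every DMSO library. These amounted to log2 fold changes of -0.31 ± 0.08 with CS2 (edgeR adjusted p = 0.00234) and -0.27 ± 0.08 with FB23-2 (edgeR adjusted p = 0.00577). PSMD14, the deubiquitinase of the cap, fell by 0.29 with CS2 and by 0.30 with FB23-2 (edgeR adjusted p = 0.018 and 0.0133). Its CS2 call was lost without CS2 replicate 1 or 2, without DMSO replicate 2 and after the GC and span correction, at adjusted p of 0.0551 to 0.593. PSMD6 fell by 0.27 with CS2 and had -0.19 with FB23-2 (edgeR adjusted p = 0.0227 and 0.0948). That CS2 call was lost without CS2 replicate 1 or 2 or without DMSO replicate 2 or 3, at adjusted p of 0.0662 to 0.142, and its FB23-2 value passed under 3 of 15 alternatives, at -0.35 to -0.19.

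PSMD1, a scaffold, and PSMD4, a ubiquitin receptor, fell with FB23-2 by 0.32 and 0.29. PSMD8 had -0.18 with FB23-2 at the edge of the threshold (edgeR adjusted p = 0.0468), and this call was lost under 11 of 15 alternatives. PSMD7, PSMD12 and PSMD13 passed no test against DMSO, with log2 fold changes of -0.16 to -0.04 over both compounds. PSMD12 did pass with FB23-2 without FB23-2 replicate 2 (-0.21, adjusted p = 0.0352) and after the GC and span correction (-0.37, adjusted p = 0.000192). PSMD1 and PSMD7 share 10.78% and 30.73% of their exon bases with genes on the opposite strand. The sum of the 11 genes was 2008, 2088 and 2080 CPM with CS2, 1558, 1508 and 1661 CPM with FB23-2 and 1927, 1877 and 1900 CPM with DMSO. The CS2 libraries were all above, and the FB23-2 libraries all below, those of DMSO, and the FB23-2 mean was 17.1% lower. Most of the CS2 rise lay in PSMD2 alone. Its mean was 706 CPM with CS2 and 553 CPM with DMSO, beside means of 2059 and 1901 CPM for the sum. The median log2 fold change of the 11 genes with CS2 was -0.04. ADRM1, a ubiquitin receptor, and SEM1, the smallest cap subunit, which are not among the 40 genes, also fell with FB23-2, by 0.27 and 0.54, and had 0.04 and -0.14 with CS2, which did not pass the test. After the GC and span correction the FB23-2 value of ADRM1 was 0.04 (adjusted p = 0.73).

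**Figure D3:**
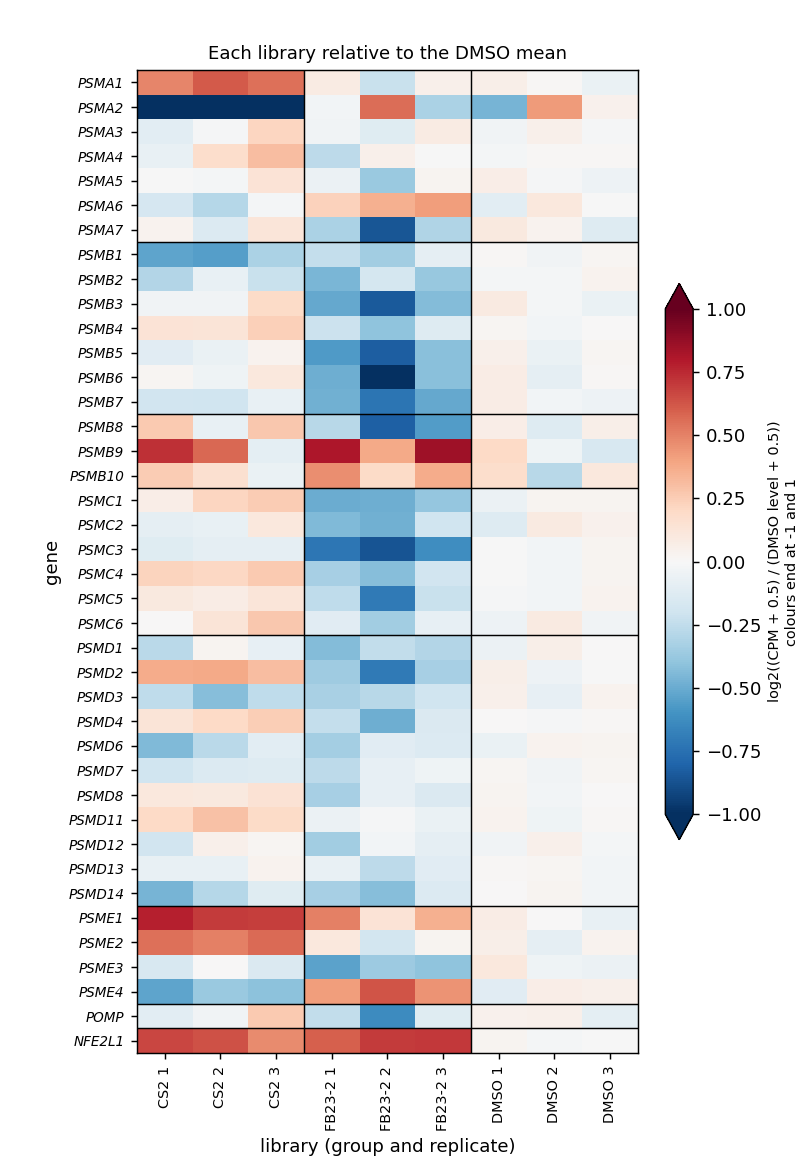
Each row is a gene and each column a library (CS2, FB23-2, DMSO); the colour is log2 of CPM plus 0.5 relative to the DMSO level plus 0.5, red above and blue below, with colours ending at -1 and 1. FB23-2 replicate 2 is deeper blue than the other FB23-2 libraries for PSMB6 and PSMA7, and those are blue for the same genes.

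Genomic span moved with these comparisons over the whole transcriptome. Of the 40 genes, 35 span up to 50 kb and 11 up to 10 kb. Protein-coding genes of up to 10 kb had a median log2 fold change of 0.14 with CS2 and -0.16 with FB23-2, and 36.9% of them fell with FB23-2. Those spanning over 10 to 50 kb had medians of 0.14 with CS2 and 0.04 with FB23-2, of which 26.9% fell with FB23-2. Between the compounds, FB23-2 minus CS2, the medians were -0.30 for genes of up to 10 kb, of which 46.8% were lower, and -0.11 for those over 10 to 50 kb, of which 37.9% were lower, beside -0.31 and 57.5% for the 40 genes. When each library was corrected for GC content and span, 26 of the 40 genes fell and 4 rose with FB23-2, beside 25.2% of all tested genes lower and 27.3% higher. With CS2 the corrected counts were 7 higher and 8 lower, beside 26.5% and 23% of all tested genes.

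Of the 4 activators, PSME1 rose with both compounds, PSME2 with CS2 and PSME4 with FB23-2, while PSME3 fell with FB23-2 and PSME4 with CS2. PSME1 (chr14:24136158-24138967 on GRCh38) encodes the alpha subunit of the interferon-inducible PA28 activator. It had 113, 106 and 106 CPM with CS2, 92.8, 71.9 and 83.5 CPM with FB23-2 and 68.7, 65.3 and 62.1 CPM with DMSO. All libraries of CS2 were above all of FB23-2, and those were above all of DMSO. The log2 fold changes were 0.73 ± 0.09 with CS2, a 1.66-fold rise (edgeR adjusted p = 1.46e-06), and 0.34 ± 0.09 with FB23-2 (edgeR adjusted p = 0.00343), and FB23-2 was below CS2 by 0.39 (edgeR adjusted p = 0.000914). PSME2 (chr14:24143362-24147570), the beta subunit of the same activator, rose with CS2 and did not pass the test with FB23-2. Its values were 126, 122 and 127 CPM with CS2, 92.1, 75.4 and 87.4 CPM with FB23-2 and 89.5, 80.4 and 87.8 CPM with DMSO. The CS2 libraries stood above the rest, and those of FB23-2 and DMSO overlapped. The log2 fold changes were 0.54 ± 0.08 with CS2 (edgeR adjusted p = 2.02e-05) and -0.02 with FB23-2 (edgeR adjusted p = 0.879).

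PSME3 and PSME4, which encode the nuclear activators PA28 gamma and PA200, had different patterns. PSME3 had 277, 310 and 280 CPM with CS2, 214, 241 and 234 CPM with FB23-2 and 334, 300 and 297 CPM with DMSO. It fell with FB23-2 (-0.43 ± 0.08, edgeR adjusted p = 9.5e-05) and had -0.10 with CS2 (edgeR adjusted p = 0.28), or -0.19 after the GC and span correction (adjusted p = 0.0344). PSME4 had 69.6, 77.5 and 75.5 CPM with CS2, 134, 156 and 137 CPM with FB23-2 and 92.8, 105 and 104 CPM with DMSO. No library of any group overlapped another group, with FB23-2 above DMSO and CS2 below it. PSME4 changed on the log2 scale by -0.44 ± 0.08 with CS2 (edgeR adjusted p = 0.000204) and 0.50 ± 0.08 with FB23-2 (edgeR adjusted p = 4.2e-05). Their difference, FB23-2 minus CS2, was 0.94 ± 0.08 (edgeR adjusted p = 1.01e-08). PSME4 spans 106.77 kb, among the 4 genes of the 40 that span over 100 kb.

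The immunoproteasome subunits were lowly expressed in this line. PSMB8 and PSMB9 lie side by side in the MHC class II region, at chr6:32840717-32844703 on the minus strand and chr6:32844136-32859585 on the plus strand (GRCh38), with the peptide transporter gene TAP1 at chr6:32845209-32853978 on the minus strand. PSMB10 lies at chr16:67934502-67937087 on the minus strand. Per kilobase of the principal transcript, the DMSO libraries held 10.6 RPKM of PSMB8, 0.778 of PSMB9 and 0.284 of PSMB10. The constitutive counterparts had 132 RPKM of PSMB5, 79.3 of PSMB6 and 225 of PSMB7.

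The 3 genes did not move together with FB23-2. PSMB8 had 14.3, 11.2 and 14.4 CPM with CS2, 9.69, 6.5 and 7.9 CPM with FB23-2 and 12.4, 10.8 and 12.3 CPM with DMSO. Every FB23-2 library was below every other one, and CS2 and DMSO overlapped. Its log2 fold changes were 0.16 ± 0.14 with CS2 (edgeR adjusted p = 0.366) and -0.57 ± 0.15 with FB23-2 (edgeR adjusted p = 0.00286). PSMB8 shares 20.62% of its exon bases with genes on the opposite strand, among them PSMB8-AS1, which rose with both compounds to 0.905 CPM with CS2 and 0.808 CPM with FB23-2, against 0.277 CPM with DMSO.

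PSMB9 rose with FB23-2 from few reads: 302 counts over the 9 libraries. It had 1.33, 1.14 and 0.532 CPM with CS2, 1.43, 0.935 and 1.49 CPM with FB23-2 and 0.763, 0.572 and 0.489 CPM with DMSO. The FB23-2 libraries were all above those of DMSO, and CS2 replicate 3 lay within the DMSO range. The log2 fold changes were 1.07 ± 0.34 with FB23-2, a 2.1-fold rise (edgeR adjusted p = 0.0133), and 0.73 ± 0.35 with CS2 (edgeR adjusted p = 0.0967). Leaving out DMSO replicate 3 ended the FB23-2 call (0.92, adjusted p = 0.0647), and the CS2 value passed without CS2 replicate 3 (1.03, adjusted p = 0.0187). PSMB10 had 0.501, 0.436 and 0.299 CPM with CS2, 0.656, 0.455 and 0.583 CPM with FB23-2 and 0.447, 0.191 and 0.4 CPM with DMSO. The FB23-2 libraries did not overlap with DMSO, yet with 141 counts in all the log2 differences of 0.67 ± 0.41 with FB23-2 and 0.23 ± 0.44 with CS2 did not pass the test (edgeR adjusted p = 0.186 and 0.69). PSMB10 shares 27.47% of its windows with a same-strand locus, ENSG00000261884, which held 227 counts, so its level is uncertain.

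**Figure D4:**
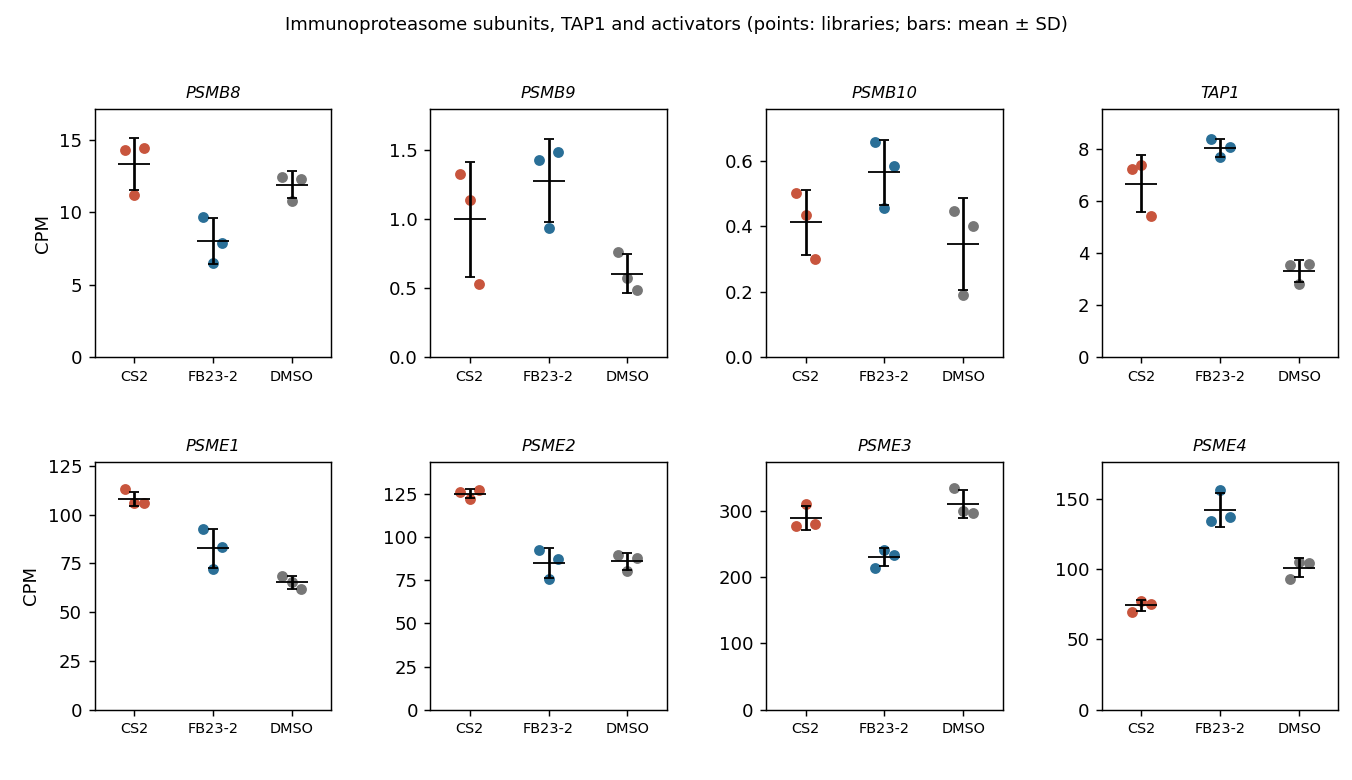
CPM of the 3 immunoproteasome subunits, TAP1 and the 4 activators (vertical axes, starting at 0, on their own scales) in each library, with the mean and SD of each group; groups run CS2, FB23-2, DMSO. PSME1 is highest with CS2 and lowest with DMSO, PSME4 is highest with FB23-2, and PSMB9 and PSMB10 stay under 2 CPM in every library.

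The ratio of each inducible subunit to the constitutive subunit it can replace was taken per kilobase of exon in each library. PSMB8 to PSMB5 had log2 ratios of -4.41 ± 0.2 with CS2, -4.59 ± 0.23 with FB23-2 and -4.62 ± 0.06 with DMSO (SD, n = 3 each). The FB23-2 and DMSO values overlapped, with both genes lower with FB23-2, and the differences from DMSO were 0.21 with CS2 and 0.03 with FB23-2 (exact permutation test, two-sided, p = 0.3 and 0.9). PSMB9 to PSMB6 had -7.29 ± 0.77 with CS2, -6.18 ± 0.03 with FB23-2 and -7.91 ± 0.29 with DMSO. Its FB23-2 libraries were all above those of DMSO, by 1.73 on average. PSMB10 to PSMB7 had -8.99 ± 0.45 with CS2, -8.1 ± 0.14 with FB23-2 and -9.46 ± 0.64 with DMSO, again without overlap between FB23-2 and DMSO, at a difference of 1.36. The exact permutation p was 0.1 for the FB23-2 difference of each of these ratios, the smallest that 3 against 3 libraries allow, and 0.3 and 0.4 for the CS2 differences of 0.61 and 0.47. As the geometric mean over libraries, PSMB9 was 0.637% of PSMB6 with CS2, 1.38% with FB23-2 and 0.417% with DMSO.

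Most interferon-linked genes around the immunoproteasome rose with both compounds. Of 7 such genes, 5 rose with CS2 and 6 with FB23-2, none fell, and the medians were 0.75 and 0.71. Over all tested genes, 24.3% rose with CS2 and 25.4% with FB23-2. IRF9, which is among the 6, had an adjusted p of 0.05 and lost its FB23-2 call under 9 of 15 alternatives. TAP1 had 7.22, 7.38 and 5.42 CPM with CS2, 8.38, 7.69 and 8.08 CPM with FB23-2 and 3.53, 2.83 and 3.6 CPM with DMSO. All treated libraries were above all DMSO libraries, with log2 fold changes of 1.00 ± 0.16 and 1.27 ± 0.16 (edgeR adjusted p = 3.66e-05 for CS2 and 1.71e-06 for FB23-2). TAP2, the other chain of the transporter, rose by 0.84 with CS2 and 0.71 with FB23-2. Its exons share 32.3% of their bases with another gene, so its counts are uncertain. IRF1, a transcription factor of the interferon response, rose by 0.75 with CS2 and by 1.12 with FB23-2. STAT2, another factor of that response, rose by 1.07 with CS2 and 0.44 with FB23-2, the last lost without FB23-2 replicate 1 or without DMSO replicate 1 or 3. NLRC5, the transactivator of MHC class I genes, had 0.01 with CS2 and 0.54 with FB23-2 and did not pass the test (edgeR adjusted p = 0.976 and 0.0683).

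The 2 PA28 genes, PSMB9 and TAP1 are classical interferon-inducible genes. NFE2L1 rose with both compounds. PSMB3 is a beta ring gene, and all 7 genes of that ring fell with FB23-2. Among the ring's matched windows, only that of PSMB3 holds the CNC-bZIP element described below, so it does not stand for the ring. The promoter windows of PSME1, PSME2, PSMB9, TAP1, NFE2L1 and PSMB3 are shown here. They run from 250 bases before to 50 bases after the RefSeq start, 5′ to 3′ on the gene's strand (RefSeq, GRCh38.p14), at chr14:24135944-24136243 (plus) for PSME1, chr14:24146561-24146860 (minus) for PSME2, chr6:32853942-32854241 (plus) for PSMB9, chr6:32853655-32853954 (minus) for TAP1, chr17:48048109-48048408 (plus) for NFE2L1 and chr17:38752491-38752790 (plus) for PSMB3. The windows of PSMB9 and TAP1 lie head to head and overlap at their ends. Capitals mark matches on either strand to TGACNNNGC, a CNC-bZIP element of the kind NFE2L1 binds, to the interferon-stimulated response element core (GAAA, any 2 bases, GAAA), and to CCAAT.
PSME1: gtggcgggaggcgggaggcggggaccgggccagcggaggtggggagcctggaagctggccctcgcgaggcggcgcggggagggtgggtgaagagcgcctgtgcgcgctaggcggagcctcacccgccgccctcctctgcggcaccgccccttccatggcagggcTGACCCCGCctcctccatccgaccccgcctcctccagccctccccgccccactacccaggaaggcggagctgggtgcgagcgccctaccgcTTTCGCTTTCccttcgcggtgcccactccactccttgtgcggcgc
PSME2: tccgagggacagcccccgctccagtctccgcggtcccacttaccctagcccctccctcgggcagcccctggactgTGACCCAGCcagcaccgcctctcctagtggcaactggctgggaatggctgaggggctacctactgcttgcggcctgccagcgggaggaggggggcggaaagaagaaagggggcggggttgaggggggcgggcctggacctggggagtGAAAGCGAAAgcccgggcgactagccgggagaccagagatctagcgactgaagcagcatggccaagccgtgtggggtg
PSMB9: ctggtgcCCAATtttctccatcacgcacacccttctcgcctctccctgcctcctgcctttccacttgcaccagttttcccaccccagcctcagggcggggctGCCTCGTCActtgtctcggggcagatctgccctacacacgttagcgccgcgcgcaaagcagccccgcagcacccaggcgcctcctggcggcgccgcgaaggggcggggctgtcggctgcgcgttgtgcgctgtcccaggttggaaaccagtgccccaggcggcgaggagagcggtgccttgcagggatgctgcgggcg
TAP1: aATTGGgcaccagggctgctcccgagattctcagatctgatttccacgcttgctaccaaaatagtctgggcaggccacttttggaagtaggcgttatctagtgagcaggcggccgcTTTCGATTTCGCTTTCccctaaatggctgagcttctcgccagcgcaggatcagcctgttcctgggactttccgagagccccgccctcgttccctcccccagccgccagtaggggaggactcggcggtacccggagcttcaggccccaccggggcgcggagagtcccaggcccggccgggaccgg
NFE2L1: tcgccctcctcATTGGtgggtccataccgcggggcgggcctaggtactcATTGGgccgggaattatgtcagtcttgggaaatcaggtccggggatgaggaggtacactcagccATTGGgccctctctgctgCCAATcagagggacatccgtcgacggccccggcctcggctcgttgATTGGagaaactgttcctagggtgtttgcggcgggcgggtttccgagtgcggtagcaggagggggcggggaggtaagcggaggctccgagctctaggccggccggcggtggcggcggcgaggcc
PSMB3: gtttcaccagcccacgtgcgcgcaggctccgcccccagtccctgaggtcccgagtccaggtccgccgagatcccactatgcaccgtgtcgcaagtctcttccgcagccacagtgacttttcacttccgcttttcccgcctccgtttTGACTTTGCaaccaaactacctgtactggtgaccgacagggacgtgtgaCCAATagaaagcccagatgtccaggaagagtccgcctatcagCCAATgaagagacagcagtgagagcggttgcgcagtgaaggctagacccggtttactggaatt

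PSME1 and PSME2 each held both the CNC-bZIP element and the interferon core. TAP1 held 2 overlapping matches to the interferon core and a match to CCAAT, and PSMB9 held the CNC-bZIP element and CCAAT. The CCAAT matches of TAP1 and PSMB9 are the same bases, in the overlap of their windows. The interferon matches of TAP1 lie between the starts of these genes, outside the PSMB9 window. NFE2L1 held 5 matches to CCAAT and none to the other motifs, and PSMB3 held the CNC-bZIP element and 2 matches to CCAAT. The windows of the beta ring genes PSMB2, PSMB4 and PSMB5 held no CNC-bZIP element. RefSeq windows were matched for 35 of the 40 genes, with the first listed window taken for each. The shares over all 35116 promoters count every window of any gene, expressed or not, so the units differ. The CNC-bZIP element was in 9 of the 35, or 25.7%, against 13.3% of 35116 promoters. Those 9 were PSMB3, PSMB9, PSMC4, PSMD1, PSMD3, PSMD12, PSME1, PSME2 and PSME4. The interferon core was in 5 of the 35, or 14.3%, against 3.57% of all promoters, namely PSMA4, PSMB4, PSMB10, PSME1 and PSME2. CCAAT was in 17, or 48.6%, against 34.6%. TTCNNNGAA, the GAS element, was in 4, or 11.4%, against 7.66%, and the ATF4 composite element TGATGNAA was in 0, against 3.62%. The genes with the CNC-bZIP element included some that rose and some that fell with each compound, and a match describes letters in a window only.

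NFE2L1 rose about as much with each compound. It had 414, 405 and 361 CPM with CS2, 395, 424 and 425 CPM with FB23-2 and 265, 256 and 260 CPM with DMSO. All treated libraries were above all DMSO libraries, and the compounds overlapped. Its log2 fold changes were 0.59 ± 0.07 with CS2, 1.51-fold (edgeR adjusted p = 1.22e-06), and 0.67 ± 0.07 with FB23-2, 1.59-fold (edgeR adjusted p = 2.33e-07), and FB23-2 minus CS2 was 0.08 ± 0.07 (edgeR adjusted p = 0.373). After the GC and span correction that last difference was 0.32 (adjusted p = 0.000547). In the libraries with this rise, the 31 core and cap genes had medians of 0.01 with CS2 and -0.27 with FB23-2.

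Of 12 genes related to NFE2L1 or to its release from the endoplasmic reticulum, 3 rose and 2 fell with CS2, and 6 rose and 3 fell with FB23-2. These are 25% and 16.7% with CS2, near or below the 24.3% and 25.3% of all tested genes, and 50% and 25% with FB23-2, beside 25.4% and 26.7%. NFE2L3, a related factor, rose by 0.67 ± 0.09 with CS2 and by 0.46 ± 0.09 with FB23-2 (edgeR adjusted p = 4.95e-06 and 0.00029). NFE2L2, the oxidative stress factor NRF2, rose with FB23-2, at 116, 160 and 126 CPM, against 73.1, 77.3 and 75.4 CPM with DMSO (0.84 ± 0.10, edgeR adjusted p = 9.14e-07). With CS2 it had -0.02 (edgeR adjusted p = 0.861), and 0.29 after the GC and span correction (adjusted p = 0.00773). NGLY1, the glycanase that acts on NFE2L1, fell by 0.29 with CS2 and rose by 0.42 with FB23-2 (edgeR adjusted p = 0.0184 and 0.001). Its CS2 call was lost under 5 of 15 alternatives, and its FB23-2 call after the GC and span correction (0.21, adjusted p = 0.0653). DDI2, the protease that cuts NFE2L1, passed no test, with 0.16 and -0.04. SYVN1, an endoplasmic reticulum ubiquitin ligase, rose by 0.41 with CS2 and 0.50 with FB23-2. SEL1L, its partner, fell by 0.28 with CS2 and rose by 1.43 with FB23-2, the CS2 call lost without CS2 replicate 1 or DMSO replicate 2. OGT, a glycosyltransferase, rose by 0.20 with CS2, lost under 8 of 15 alternatives, and by 1.16 with FB23-2. VCP, the segregase that extracts NFE2L1 from the membrane, fell by 0.35 with FB23-2 and had 0.02 with CS2.

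**Figure D5:**
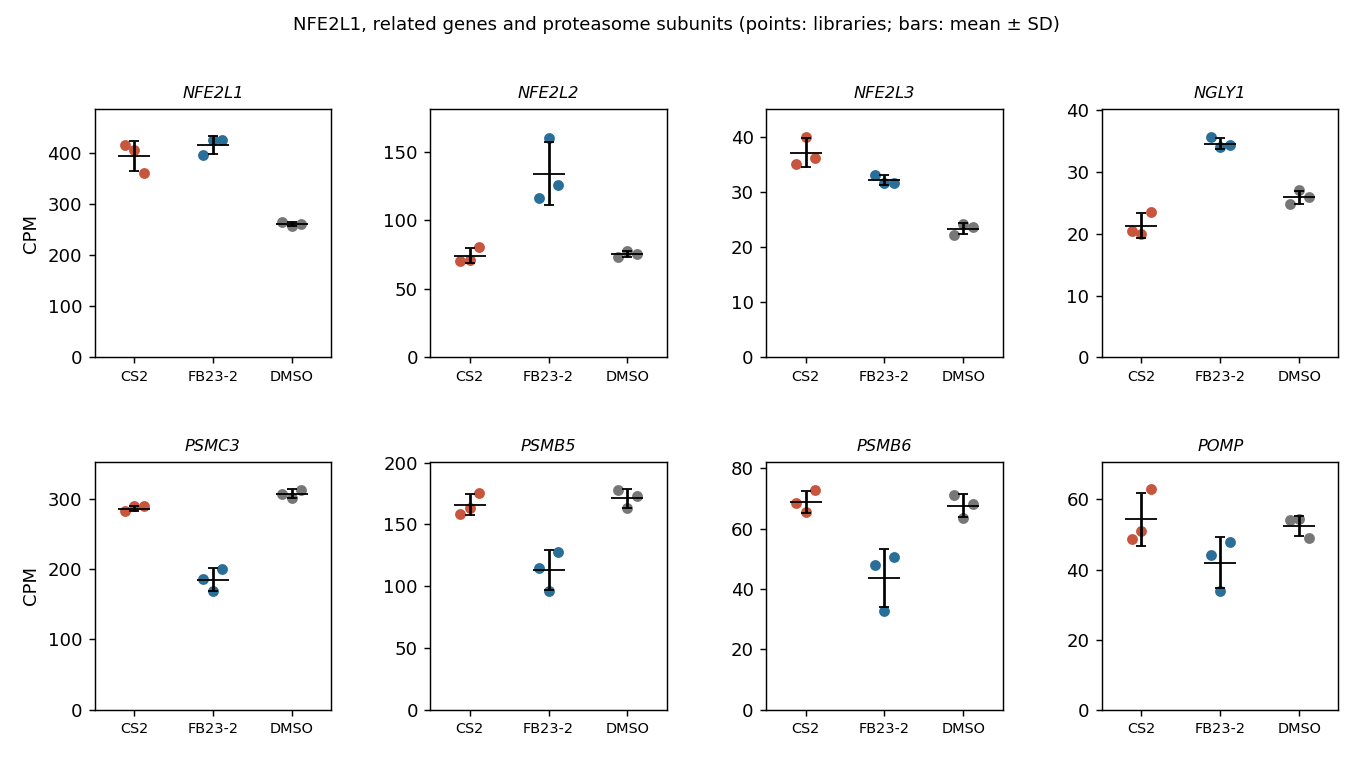
CPM of NFE2L1, 3 related genes, 3 proteasome subunits and POMP (vertical axes, starting at 0, on their own scales) in each library, with the mean and SD of each group; groups run CS2, FB23-2, DMSO. NFE2L1 is above DMSO with both compounds, while PSMC3, PSMB5 and PSMB6 are below DMSO with FB23-2.

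POMP, the maturation factor that builds the beta ring onto the alpha ring, had 48.7, 51.1 and 62.9 CPM with CS2, 44.1, 33.8 and 48 CPM with FB23-2 and 54, 54.3 and 49.1 CPM with DMSO. FB23-2 libraries lay below those of DMSO, replicate 2 furthest, while CS2 overlapped DMSO. The log2 fold changes were 0.05 ± 0.12 with CS2 (edgeR adjusted p = 0.756) and -0.32 ± 0.12 with FB23-2 (edgeR adjusted p = 0.0271). Without FB23-2 replicate 2 the FB23-2 value was -0.18 (adjusted p = 0.113), and the call was also lost without DMSO replicate 1 or 2 (adjusted p = 0.084 and 0.0842). Of 8 other assembly chaperones, 4 rose and none fell with CS2, or 50% higher beside 24.3% of all tested genes. Those that rose were PSMG4 by 0.37, PSMD10 by 0.31, PAAF1 by 0.30 and PSMD5 by 0.20. The PSMD5 call was lost under 8 of 15 alternatives, and the PAAF1 call without CS2 replicate 2. With FB23-2, PAAF1, a chaperone of the cap, rose by 0.56 and PSMG1, of the alpha ring, by 0.42, while PSMG3, also of the alpha ring, fell by 0.55.

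Genes that feed or restrain the proteasome showed no single direction. Of 8 inhibitors and proteasome-bound regulators, CS2 lowered 2 and FB23-2 lowered 3, and none rose. The lowered genes are 25% with CS2 and 37.5% with FB23-2, beside 25.3% and 26.7% of all tested genes. Of all tested genes, 24.3% rose with CS2 and 25.4% with FB23-2. UBE3C, a ubiquitin ligase bound to the proteasome, fell by 0.81 with CS2 and by 0.18 with FB23-2, the last a call lost under 11 of 15 alternatives. ECPAS, a scaffold of the proteasome, fell by 0.23 with CS2, lost under 5 of 15, and by 0.58 with FB23-2, and ZFAND5, an activator, fell by 0.29 with FB23-2. Among ubiquitin and E1 genes, UBB and UBA1 fell with FB23-2, by 0.59 and 0.48, and UBA6, an alternative E1, fell by 0.22 with CS2, lost under 7 of 15, and rose by 0.58 with FB23-2. Among shuttle factors, RAD23B fell by 0.22 with CS2, lost under 6 of 15, and UBQLN4 rose by 0.30 with CS2, lost after the GC and span correction (adjusted p = 0.0677). SQSTM1, an autophagy receptor, rose by 0.33 with CS2 and by 0.19 with FB23-2, the last lost under 6 of 15. The germline alpha subunit PSMA8 had no counts, and the thymic beta subunit PSMB11 had counts only in DMSO replicate 2, at 0.0318 CPM.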

How the data were processed

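Per the labels' protocols, RNA of NCI-H69 was extracted with TRIzol for mRNA libraries (Hieff NGS Ultima kit). The values deposited by the authors are raw whole-number counts for each gene. Per the submitters' processing notes the build was hg38. Aligner, counting tool, annotation and strand setting: not given in the sources used here, which leaves room for mixed reads. Overlapping, antisense and near-identical genes are the ones concerned. Columns were matched to 9 samples by name, and the column prefix FB23 was taken as FB23-2.

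The 40 genes and the context lists were chosen with earlier results of these data known, so their counts are descriptions. The text names all 40 genes, with full values for the immunoproteasome subunits, PSME1, PSME2, POMP, NFE2L1 and the 4 largest called changes in each direction for each compound. From each context list it names the 3 called genes with the largest changes for each compound, plus NFE2L2, NFE2L3, DDI2, NGLY1, TAP1, TAP2, IRF1 and NLRC5; some genes of these lists are not reported here. Other genes with values by library, such as PSMC4 and PSMB7, were chosen after their values were seen.

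The analysis used edgeR 4.0.16 in R 4.3.3: filterByExpr (minimum count 10, total 15), TMM, and a single robust quasi-likelihood fit of all 9 libraries with group means and no covariate. The biological coefficient of variation was 0.101. The threshold was 0.05 on p-values adjusted by Benjamini-Hochberg over 19781 genes, which hold at least 99.9% of the counts of each library. SEs were computed as the log2 fold change over the square root of its F statistic. The procedure was tested on simulated data. CPM use TMM-scaled library sizes, and RPKM divide CPM by the principal transcript's length; ratios of subunits use the union of exons. The series calls its samples biological replicates, and p-values measure the spread between these libraries. Count floors cover counting error only. Symbols were paired with 42343 IDs, and coordinates and overlaps came from GENCODE 29 (GRCh38, 58261 IDs matched), read in Python 3.11.15. DESeq2 1.42.0 and a correction for GC content and span (mgcv 1.9.3) were among the alternatives.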

Additional observations from a re-analysis of the deposited data

Results flagged for a closer look

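The effects of the compounds against DMSO were called in opposite directions for 3 of the 40 genes. The share of all tested genes called in opposite directions was not computed, so this count is a description only. The direct comparison of FB23-2 with CS2 tested each difference. PSME4, the PA200 activator, was higher with FB23-2 than with CS2 by 0.94 on the log2 scale. PSMD2, a scaffold of the 19S cap, had a log2 difference of -0.81 between FB23-2 and CS2. PSMC4, an ATPase of the cap, had a log2 difference of -0.54 between FB23-2 and CS2, and its CS2 call against DMSO depended on DMSO replicate 2. All 3 differences passed the test across all genes (edgeR adjusted p = 1.01e-08 for PSME4, 1.28e-07 for PSMD2 and 3.32e-06 for PSMC4), and the FB23-2 and CS2 libraries did not overlap for any of them.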

How the results depend on the processing

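The counts of the 40 genes called higher or lower in the 3 comparisons stayed within 1.5 times their values under every alternative run. Without each library in turn, the genes lowered by FB23-2 against DMSO numbered 19 to 22 and those raised 3 to 5, those lowered by CS2 4 to 6 and those raised 5 to 10, and those lower with FB23-2 than with CS2 21 to 25 and higher 3 to 4. Whether a replicate number pairs libraries across groups is not given in the labels and was not settled here. Correlations of same-numbered deviations were 0.167, 0.123 and 0.049 between CS2 and FB23-2. Between DMSO and either compound they ran from -0.0303 to 0.0207. Of the 9 libraries, 7 correlated best with a library of their own number. With a replicate block the counts were 10 higher and 7 lower for CS2, 4 and 23 for FB23-2, and 4 and 24 between the compounds. The correction for GC content and span reversed single genes outside the 40: ADRM1 was 0.04 for FB23-2 minus DMSO and 0.15 for FB23-2 minus CS2, UCHL5 was -0.24 for FB23-2 minus DMSO (0.02 without the correction), NFE2L2 was 0.29 for CS2 minus DMSO, and UBQLN4 was 0.04 for FB23-2 minus CS2. The cause was not tested. For the ratios of inducible to constitutive subunits, a gene's length cancels in the difference from DMSO, so the settings without division by length and with the length of the principal transcript (chosen after seeing the data) test nothing. PSMB10, PSMB9 and PSMA2, with 141, 302 and 560 counts in all, were the members most limited by depth.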

Other observations

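PSMD6 and PSMD14, subunits of the 19S cap on different chromosomes, had nearly the same deposited counts in the CS2 libraries. PSMD14 had 1713, 1700 and 1927 counts and PSMD6 had 1712, 1699 and 1927 counts in CS2 replicates 1, 2 and 3. No other pair among the 40 genes agreed within 1 count in all 3 libraries of a group. The genes had different counts in the FB23-2 and DMSO libraries.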
